A study of Mus musculus with 2 samples.

Results

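The elastases, chymotrypsinogens and pancreatic carboxypeptidases are protein-digesting enzymes that acinar cells of the pancreas store and secrete. The 8 genes described here are Cela1, Cela2a and Cela3b (elastases), Ctrb1, Ctrc and Ctrl (chymotrypsinogens), and Cpa1 and Cpb1 (carboxypeptidases). They were taken by name from the 31253 genes of the deposited matrices, and 8 of 8 were listed. The series holds 2 single-cell RNA libraries of mouse pancreas made on the BD Rhapsody system, which tags the RNA of each captured cell with a cell barcode. The first (CP) came from animals given Cae, and the second (CP+EVs) from animals given Cae and extracellular vesicles, which the series title describes as induced by exercise. Both libraries thus share the Cae treatment. The labels call the condition acute pancreatitis while the title speaks of chronic pancreatitis. Strain, sex, age, the number of animals, doses and times were not given in the sources used here.

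These enzymes are made as inactive zymogens, packed with other digestive enzymes into zymogen granules at the apical side of the acinar cell, and switched on in the intestine after trypsin has been activated. Elastases cut proteins after small side chains, chymotrypsins after large hydrophobic and aromatic ones, and carboxypeptidases remove residues from the end of the chain. Their promoters are active mainly in acinar cells, under a factor complex that contains Ptf1a and Rbpjl. Early activation of zymogens inside the pancreas is a known feature of pancreatitis.

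With 1 library per treatment there was no test across samples, so every difference between CP and CP+EVs compares those libraries and not the treatments. Intervals are exact 95% intervals on UMIs, the unique molecular identifiers that count captured RNA molecules, and they cover counting error only. After filtering, 13409 CP and 8799 CP+EVs barcodes remained, with 51460809 and 38487198 UMIs. Clusters were formed without the 8 genes and named from markers that do not include them. This gave 2140 acinar-like barcodes in CP+EVs and 12 in CP. In the CP+EVs acinar-like barcodes 18 of 18 acinar markers were detected, at a summed level of 266562 CPM (UMIs per 1000000 UMIs). In the 12 CP barcodes 16 of 18 were detected, at 145412 CPM, with Rbpjl and Bhlha15 at 0. These 12 barcodes held 43614 UMIs in all, against 7428504 in the 2140 of CP+EVs, so detection was compared at unlike depth. The part of depth in these zeros was not tested. Of the barcode sequences, 118 occurred in both libraries, among them 34 of the CP+EVs acinar-like barcodes and 0 of the 12 in CP.

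In the CP+EVs acinar-like barcodes the 8 genes made up 24.3% of all UMIs (interval 24.29 to 24.36%), from a median depth of 2907 UMIs per barcode. The elastases held 10.999% of the UMIs, the chymotrypsinogens 7.15% and the carboxypeptidases 6.17%. Between barcodes the summed share ran from 13.1% at the 5th percentile to 31.0% at the 95th. It was lower in the shallowest depth quartile of barcodes, with a median of 20.2%, than in the deeper quartiles, with medians of 25.5%, 25.6% and 25.9%.

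Among the elastases, Cela1 (chr15:100674421-100687921, GRCm38) was the most abundant, at 80851 CPM. Its value per 10000 UMIs of a barcode had a lowest, median and highest of 211, 793 and 1672. Cela1 was the leading member in 1867 of the 2140 barcodes (87.2%), and no barcode lacked it. Cela3b (chr4:137420999-137430540) reached 28664 CPM, with 17.99, 291 and 670 UMIs per 10000 as the lowest, median and highest. Cela2a (chr4:141814962-141826160) was far below both at 474 CPM, and 1313 of 2140 barcodes (61.4%) had a UMI of it.

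Of the chymotrypsinogens, Ctrb1 (chr8:111686519-111691010), a main chymotrypsin precursor of the mouse, reached 56654 CPM. Its lowest, median and highest values were 117, 549 and 1422 UMIs per 10000, and it led in 250 barcodes (11.7%). Ctrl (chr8:105932003-105933862), a chymotrypsin-like protease, stood at 14655 CPM, with 11.6, 144 and 341 UMIs per 10000. Ctrc (chr4:141814962-141846359), whose product in other species degrades trypsinogen, was the lowest of the 8 at 169 CPM, and 845 barcodes (39.5%) had a UMI of it.

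The carboxypeptidases lay close together. Cpa1 (chr6:30639218-30645363), which removes aromatic and aliphatic residues, reached 32577 CPM, with a lowest, median and highest of 44.6, 298 and 754 UMIs per 10000. Cpb1 (chr3:20248264-20275733), which removes basic residues, reached 29168 CPM, with 72.3, 264 and 828 UMIs per 10000. Over the whole set the order of levels by CPM was Cela1, Ctrb1, Cpa1, Cpb1, Cela3b, Ctrl, Cela2a and Ctrc.

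Levels were also divided by the kilobases of each gene's longest coding transcript. On that scale Cela1 (72971 CPM per kb) and Ctrb1 (64526) still led, followed by Cela3b (30955), Cpa1 (20579), Ctrl (16673), Cpb1 (10732), Cela2a (443) and Ctrc (177). In CPM, Cpa1 and Cpb1 stood above Cela3b. A UMI counts a captured molecule once whatever its length, so the order in CPM is that of captured molecules and the order per kb is not. Whether capture differed with transcript length was not tested.

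The low values of Cela2a and Ctrc are uncertain. Both gene models run on the minus strand from the same 3′ end and share 305 exonic bases, which is 17.7% of the exonic bases of Cela2a and 21.4% of those of Ctrc. The last exon of the longest coding Cela2a transcript, nearest to the poly(A) tail by which the system captures RNA, is 94 bases long, and 94 of these bases also belong to the Ctrc model. The last exon of the longest coding Ctrc transcript (chr4:141838244-141838314) is 71 bases long, and 0 of these are shared with a gene on the same strand. RefSeq lists Ctrc as a transcribed pseudogene, while GENCODE lists it as protein coding, and the models of Casp9 and of the antisense gene Ctrcos overlap it on the other strand. No source used here says how reads that fall in several genes were counted, and the part of the overlap in these low counts was not tested.

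**Figure D1:**
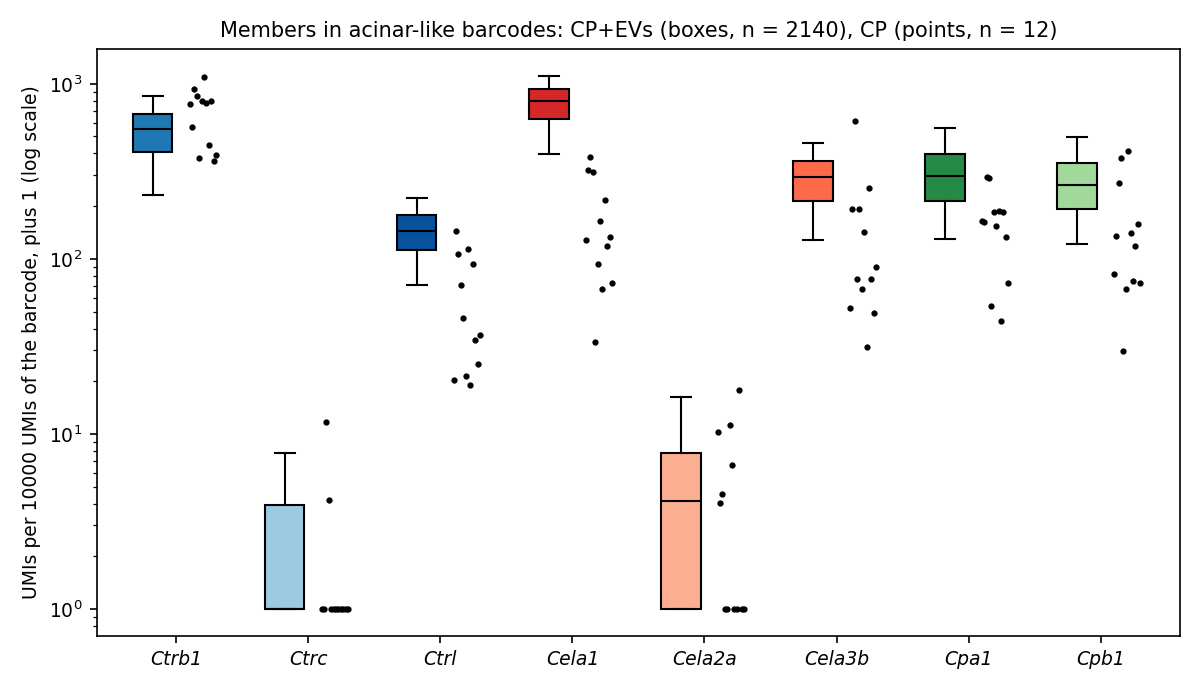
Each member's UMIs per 10000 UMIs of a barcode, plus 1, on a log axis. Boxes show the 2140 acinar-like barcodes of CP+EVs (median, quartiles, whiskers at the 5th and 95th percentiles) and points the 12 of CP. Cela1 and Ctrb1 are highest in CP+EVs, while every CP point of Cela1 lies below the CP+EVs 5th percentile of 395.

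The promoters are shown for 4 members to which the results below return. The ratio of Cela1 to Ctrb1 differed between the libraries. Cela3b and Cpa1 varied in opposite directions on the scale of all UMIs. Any part of the promoters in either pattern was not tested. Each sequence is the 250 bases before the RefSeq start (GRCm38.p6), 5′ to 3′ on the gene's strand. Capitals mark CACCTG or CAGGTG, the form of E-box searched for, and TTTCCC or GGGAAA, the core of a TC-box. The factor complex with Ptf1a is known to bind an E-box next to a TC-box. The Cela1 window is chr15:100687921-100688170, the Ctrb1 window chr8:111691011-111691260, the Cela3b window chr4:137430521-137430770 and the Cpa1 window chr6:30638968-30639217.
Cela1: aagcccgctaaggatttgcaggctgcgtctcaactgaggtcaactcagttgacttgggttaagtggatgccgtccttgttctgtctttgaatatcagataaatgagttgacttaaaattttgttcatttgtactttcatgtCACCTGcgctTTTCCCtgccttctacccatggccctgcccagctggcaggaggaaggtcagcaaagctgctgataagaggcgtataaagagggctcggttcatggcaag
Ctrb1: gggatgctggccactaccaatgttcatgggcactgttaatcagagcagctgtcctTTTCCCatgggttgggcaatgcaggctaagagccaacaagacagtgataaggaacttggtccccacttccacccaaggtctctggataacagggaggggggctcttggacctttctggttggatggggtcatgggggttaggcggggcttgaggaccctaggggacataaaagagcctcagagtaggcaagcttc
Cela3b: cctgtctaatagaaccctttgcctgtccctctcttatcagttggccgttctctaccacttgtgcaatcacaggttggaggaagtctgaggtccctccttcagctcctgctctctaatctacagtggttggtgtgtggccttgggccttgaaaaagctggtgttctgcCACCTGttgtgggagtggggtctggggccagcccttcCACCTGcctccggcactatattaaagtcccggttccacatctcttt
Cpa1: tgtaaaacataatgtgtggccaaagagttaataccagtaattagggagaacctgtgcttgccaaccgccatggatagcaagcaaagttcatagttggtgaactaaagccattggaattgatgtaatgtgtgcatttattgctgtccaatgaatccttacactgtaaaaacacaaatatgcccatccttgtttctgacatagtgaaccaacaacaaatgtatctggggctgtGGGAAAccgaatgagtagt

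RefSeq promoters were given for 7 of the 8 members. An E-box of these letters, on either strand, occurred in 5 of the 7 and in 17.2% of all 32851 promoter windows of this length. The TC-box core occurred in 4 of the 7 and in 21.9% of all windows. Cela1 was the member with both, in these letters, within 25 bases, an arrangement found in 0.831% of windows. Its E-box begins 109 bases before the start and its TC-box core 99 bases before it, with 4 bases between them, and TATAAA follows at 27 bases before the start. Cela3b held E-boxes of these letters at 83 and 46 bases before the start and no TC-box core. Ctrb1 and Cpa1 each held a TC-box core and no E-box of these letters. E-boxes of other letters were not searched for. The Ctrb1 sequence holds such an E-box, cagctg, with 4 bases between it and the TC-box core. The searched letters were chosen after the sequences had been seen, and a match is a description and not a binding site.

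The 12 acinar-like barcodes of CP differed from those of CP+EVs in which member led. Their UMI totals ran from 560 to 12899, and the 8 genes made up 15.2% of their UMIs (interval 14.8 to 15.5%), against 24.3% in CP+EVs. Ctrb1 was the leading member in 12 of 12, at 71697 CPM, and Cela1 in 0 of 12, at 21186 CPM. Of all genes measured in acinar-like barcodes, 12.2% exceeded their CP level by 1.5-fold or more in CP+EVs and 71.2% fell short of it by as much, with a median log2 ratio of -1.26. A UMI in the 12 CP barcodes is 22.9 CPM, above the 20 CPM limit for a measured gene. Genes could thus enter through a few UMIs in CP and then come out lower in CP+EVs. These shares of all genes are therefore a poor background for the members. Of the members, 5 of 8 passed that mark upwards and 0 of 8 downwards.

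Cela1 was 3.82-fold higher in the CP+EVs barcodes (interval 3.58 to 4.08), with a lowest, median and highest in the 12 CP barcodes of 32.7, 130 and 381 UMIs per 10000. Ctrl was 2.06-fold higher (1.84 to 2.31), Cpb1 1.90-fold (1.77 to 2.06), Cpa1 1.83-fold (1.70 to 1.96) and Cela3b 1.62-fold (1.51 to 1.74). Ctrb1 went the other way and was 1.27-fold higher in CP (1.22 to 1.31). Cela2a and Ctrc, with 22 and 7 UMIs in CP, had CP+EVs over CP ratios of 0.94 (0.62 to 1.5) and 1.05 (0.51 to 2.62).

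The deepest CP barcode gave 12899 of the 43614 UMIs of this group. Without it the ratios of CP+EVs over CP were 3.27 for Cela1, 1.76 for Cpa1, 1.59 for Cpb1, 1.58 for Ctrl and 1.24 for Cela3b, which then missed the 1.5-fold mark. Ctrb1 remained 1.23-fold higher in CP. Cela2a turned from 0.94 to 1.45 and Ctrc from 1.05 to 0.74, so neither of them had a stable direction.

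As shares of the 8 members' own UMIs, those of Ctrb1 and Cela1 hardly overlapped between the libraries. How many other genes separated these barcodes as fully was not counted. The shares are also tied, since a larger share of Ctrb1 leaves less for Cela1 and the others. The Ctrb1 share in the 12 CP barcodes ran from 35.8 to 64.3% with a median of 52.0%, and 12 of 12 lay above the 99th percentile of CP+EVs (35.1%). The Cela1 share in CP ran from 4.49 to 21.0% with a median of 10.1%, and 11 of 12 lay below the 1st percentile of CP+EVs (20.0045%). In CP+EVs the median Cela1 share was 33.2% and the median Ctrb1 share 22.6%. The shares of the other members overlapped widely. Between these percentiles of CP+EVs lay 12 of 12 CP barcodes for Ctrc, 11 for Cpa1 and Cela2a, 10 for Cpb1, and 9 for Ctrl and Cela3b. The plot of both shares shows the CP barcodes at its lower right end, where few CP+EVs barcodes reach.

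**Figure D2:**
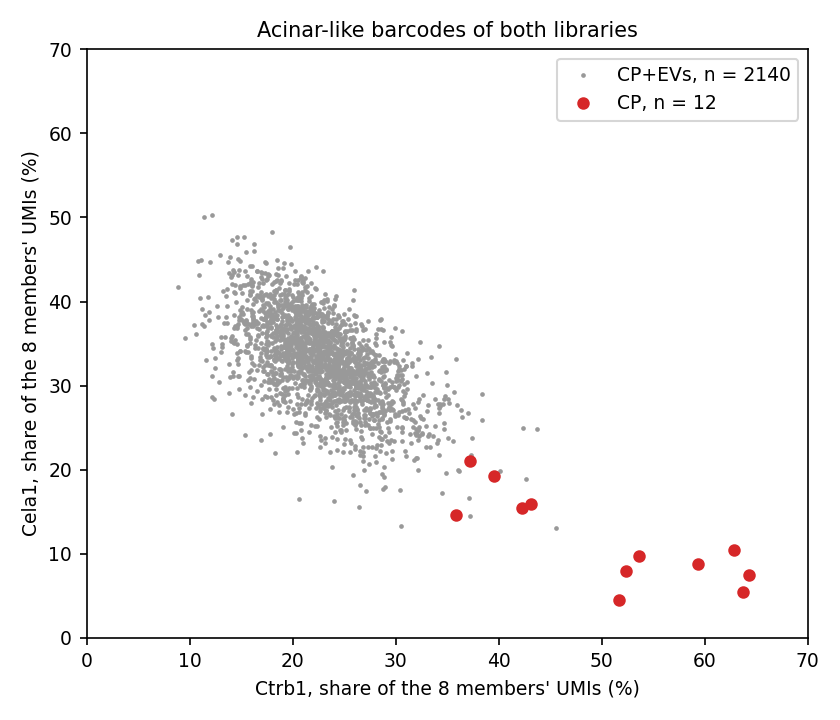
Share of the 8 members' UMIs held by Ctrb1 (x axis, %) and Cela1 (y axis, %) in each acinar-like barcode, grey for the 2140 of CP+EVs and red for the 12 of CP. The CP barcodes lie at 35.8 to 64.3% Ctrb1 and 4.49 to 21.0% Cela1.

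Other genes of these barcodes differed as well. In CP the acinar-like barcodes held Reg3b, an acinar injury gene, at 35562 CPM against 924 in CP+EVs, and Clu at 18985 against 1014. Of 6 measured Reg family genes 5 were at least 1.5-fold lower in CP+EVs, and of 8 measured ductal and metaplasia genes 7 were, where 71.2% of all genes were. That share includes genes that could enter through a few UMIs in CP, as genes of these lists could. With this and with so few genes nothing particular to these lists is read from the counts. Markers of other cells were present in both groups. Fibroblast markers summed to 5686 CPM in CP and 3839 in CP+EVs, neutrophil markers to 1857 and 114 and B cell markers to 390 and 948. Over all other barcodes, fibroblast markers summed to 26331 CPM in CP and 16099 in CP+EVs. Neutrophil markers came to 6214 and 174 there, and B cell markers to 1636 and 3654. Endothelial, endocrine and mural markers were at 0 in the 12 CP barcodes. The part of these in the member differences was not tested.

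Across the 2140 CP+EVs acinar-like barcodes how closely the members varied together depended on the pair and on the scale. With each value scaled to the barcode's total, the 28 pairs had a median Spearman correlation of 0.19, from -0.41 to 0.76. Over the 6 members above 1000 CPM alone, a subset chosen after seeing the data, the median was 0.40. On raw UMIs it was 0.61 over the 28 pairs, with 0 pairs below 0. The values of a barcode share its depth and all points come from 1 library, so these values are descriptions. The carboxypeptidases varied together most closely, at 0.76 between Cpa1 and Cpb1. Ctrb1 followed them, at 0.71 with Cpa1 and 0.61 with Cpb1. Cela1 had correlations of 0.47 with Ctrb1, 0.47 with Ctrl, 0.42 with Cpb1 and 0.40 with Cpa1. Ctrl was closest to Cela1 and Cela3b (0.42).

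Cela3b stood apart from the carboxypeptidases, at -0.37 with Cpa1 and -0.41 with Cpb1 on this scale. After thinning 2040 barcodes to 1000 UMIs each, these were -0.37 and -0.38, and within depth quartiles they ran from -0.23 to -0.52 and from -0.33 to -0.53. The direction depends on the scale. When each barcode was scaled to its UMIs outside enzyme, granule and Reg genes, the same pairs came to 0.28 and 0.26. They were still the lowest pairs of the 6 abundant members, and all 28 pairs were above 0, with a median of 0.48. This scale divides all members of a barcode by the same remainder (median 1048 UMIs), which on its own can raise every correlation between them. The part of this in the change of direction was not tested. Enzyme, granule and Reg genes made up a median of 63.3% of a barcode's UMIs. On the scale of all UMIs the values of all genes, enzyme or not, are tied by the barcode's total. The part of this in the negative pairs was not tested.

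**Figure D3:**
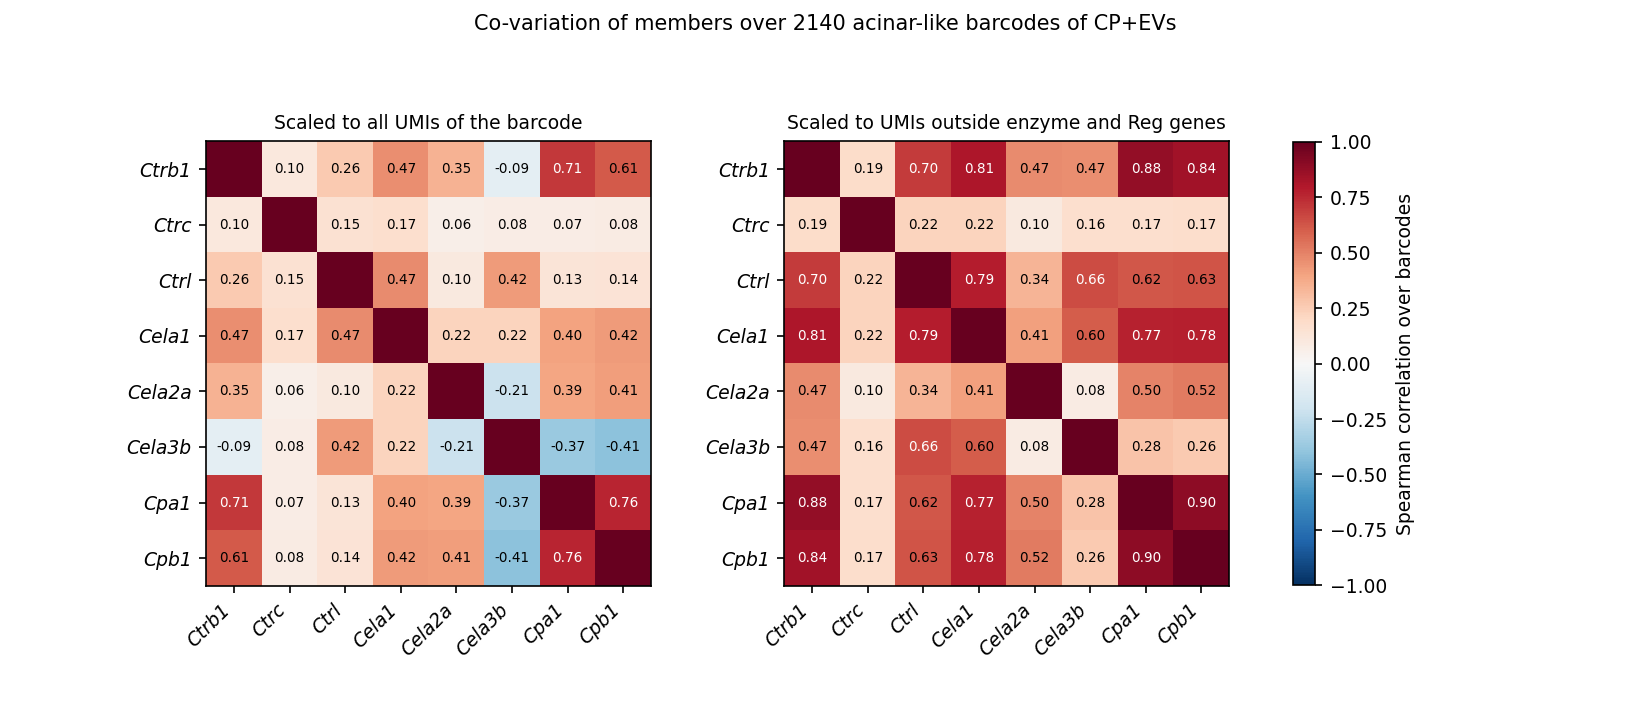
Spearman correlation between members over the 2140 acinar-like barcodes of CP+EVs, scaled to all UMIs (left) and to UMIs outside enzyme, granule and Reg genes (right), on a colour scale from -1 to 1. Cela3b against Cpa1 and Cpb1 is negative on the left (-0.37, -0.41) and positive on the right (0.28, 0.26), while Cpa1 against Cpb1 is the highest pair on both (0.76, 0.90).

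The log2 ratio of Cela3b to Cpa1 UMIs had a median of 0 and ran from -1.73 at the 5th to 1.36 at the 95th percentile. Chosen after the opposite variation had been seen, it was set beside all 322 genes with a mean of at least 0.5 UMIs. Where Cela3b was high relative to Cpa1, Igkc (an immunoglobulin light chain, correlation 0.65), Cd74 (0.45), H2-Ab1 (0.45), Actb (0.42) and H2-Eb1 (0.42), mostly genes of B cells and antigen-presenting cells, and the metallothionein Mt1 (0.42) were also higher. Where Cpa1 was high, Cel (-0.64), Rnase1 (-0.56), Pnlip (-0.50), Gp2 (-0.49), Dmbt1 (-0.39) and Amy1 (-0.30) were higher, which are a lipase, a ribonuclease, another lipase, a granule membrane protein, a secreted mucin-like protein and an amylase. The ratio had a correlation of 0.31 with the mitochondrial share and -0.09 with depth. Their part in the Cela3b pattern was not tested.

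Cela2a and Ctrc were too sparse for much to be read. Ctrc correlations ran from 0.06 to 0.17, with 1253 Ctrc UMIs in 2140 barcodes, and from -0.004 to 0.064 after thinning, and no co-variation is read from them. Cela2a reached 0.41 with Cpb1 and 0.39 with Cpa1 and came to -0.21 with Cela3b. After thinning these were 0.26, 0.26 and -0.15.

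The spread between barcodes also differed by member. In barcodes thinned to 1000 UMIs, the ratio of variance to mean, which is 1 for counting noise alone, was 7.17 for Ctrb1, 6.13 for Cela1, 5.95 for Cpa1, 5.38 for Cpb1 and 3.96 for Cela3b. It was 2.05 for Ctrl, 1.29 for Cela2a and 1.04 for Ctrc. This ratio grows with the level of a gene.

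Genes outside the set that varied with the members' sum were other acinar secretory genes. High correlations among 322 genes belonged to the lipase Pnlip (0.80), the ribonuclease Rnase1 (0.62), the granule protein Zg16 (0.56), the lipase Cel (0.53) and the lipase cofactor Clps (0.48). The lowest were Igkc (-0.67), Cd74 (-0.60) and Actb (-0.60). Over 23 sums of a class in a library, the level of the members was followed most closely by Clps, Reg1, Pnliprp1, Pnlip, Prss2 and Try5, with Pearson correlations of 0.997 to 0.999 on log2 values. These sums come from the same 2 libraries.

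The gene lists around the members gave a similar order in CP+EVs acinar-like barcodes. Of the other pancreatic proteases, 9 of 11 were in the matrix, and they summed to 7.77% of UMIs, led by the trypsinogens Try5 (24161 CPM), Try4 (20059) and Prss2 (19675). All 6 with a correlation to the member sum were above 0, with a median of 0.37. Over all 322 genes 28.3% were above 0, with a median of -0.12. Lipases, amylases and ribonuclease summed to 16.9%, led by Pnlip (52474 CPM), Pnliprp1 (41553), Clps (33924) and Rnase1 (17087), and 8 of 8 were above 0. Granule genes summed to 3.25%, led by Zg16, Sycn, Gp2 and Tff2, and 4 of 5 were above 0.

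The trypsin inhibitor Spink1, which protects the cell from early trypsin activity, stood at 5606 CPM in the same barcodes and had a correlation of 0.09 with the member sum. The inhibitors Serpini2 and Serping1 stood at 771 and 708 CPM. Of the acinar transcription factors, Xbp1 reached 264 CPM, Bhlha15 105, Nr5a2 34.6 and Rbpjl 31.4, and Ptf1a was detected at 17.8 CPM. Genes of protein folding and quality control in the endoplasmic reticulum, where the zymogens fold, included Hspa5 at 1485 CPM, Herpud1 at 862, Hsp90b1 at 842 and Pdia2, a pancreatic disulphide isomerase, at 644. Of 14 such genes 7 were above 0, against 28.3% of all 322 genes, with a median of -0.01.

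Outside acinar-like barcodes the members were found in every class of CP+EVs. Over the 12 other named classes of at least 50 barcodes, their sum ran from 0.895% of UMIs in innate lymphoid type 2-like to 2.81% in ductal-like barcodes. T cells do not make these enzymes, and T cell-like barcodes of CP+EVs held 1.26% (interval 1.25 to 1.28%). T cell-like barcodes of CP held 0.00589%. In CP+EVs T cell-like barcodes Cela1 stood at 4086 CPM, 5.05% of its acinar-like level, and Ctrb1 at 2936 CPM, 5.18% of its level. Among the 4386 CP+EVs barcodes of named classes other than acinar-like, 99.5% had a UMI of Cela1, at a median depth of 4686 UMIs, so detection of a member in a CP+EVs barcode says nothing on its own about expression there. At the 5th percentile of barcodes the members' share lay between 0.559 and 0.848% in these 12 classes, while at the 95th percentile it lay between 2.17 and 11.1%.

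**Figure D4:**
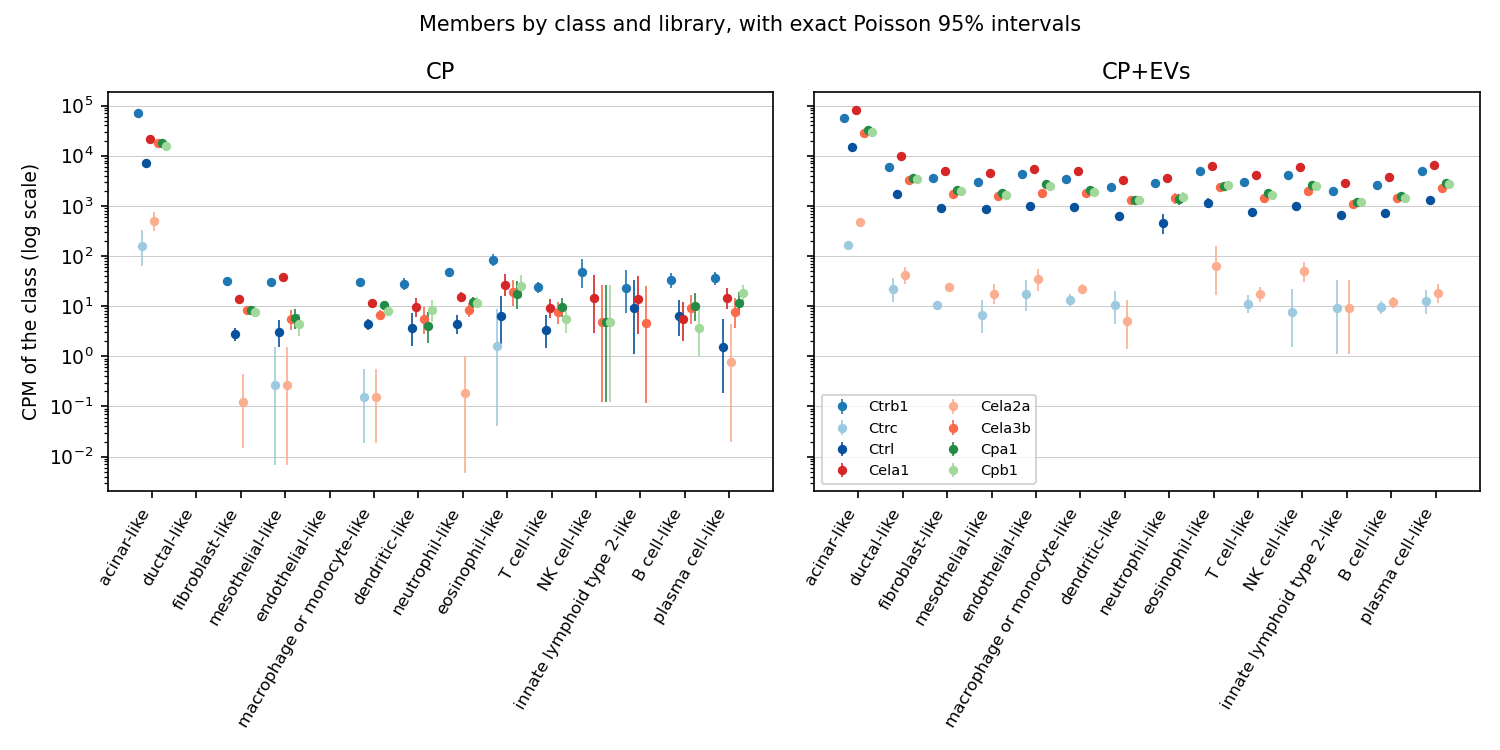
CPM of each member (log axis) in the named classes of CP (left) and CP+EVs (right), with exact Poisson 95% intervals, for classes of at least 10 barcodes and members with a UMI. Outside acinar-like barcodes Ctrb1 lies between 23.8 and 84.2 CPM over classes of at least 50 barcodes in CP and between 1956 and 6079 CPM in CP+EVs, where Cela1 leads in each class shown.

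Among the 6 abundant members the make-up of the member RNA was nearly constant across the classes of CP+EVs. Cela1 held 33.2% of the members' UMIs in acinar-like barcodes and from 30.7 to 35.0% in the 12 other classes. Ctrb1 held 23.3% and from 21.7 to 24.5%, Cpa1 13.4% and from 12.6 to 15.02%, Cpb1 12.0% and from 12.1 to 13.8%, Cela3b 11.8% and from 10.3 to 12.7%, and Ctrl 6.03% and from 5.51 to 7.25%. Cela2a held 0.195% (0.188 to 0.201%) in acinar-like barcodes and from 0.051 to 0.314% over the 12 other classes, with 4 UMIs at either end. Pooled over the named classes other than acinar-like it held 0.141% (0.130 to 0.153%), below its acinar-like share by more than counting error. Ctrc held 0.069% and from 0 to 0.104%. Over the same pooled classes the largest difference of any member from acinar-like barcodes was 0.73 percentage points, for Cela1. With unnamed clusters included it was 1.73 points, again for Cela1.

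**Figure D5:**
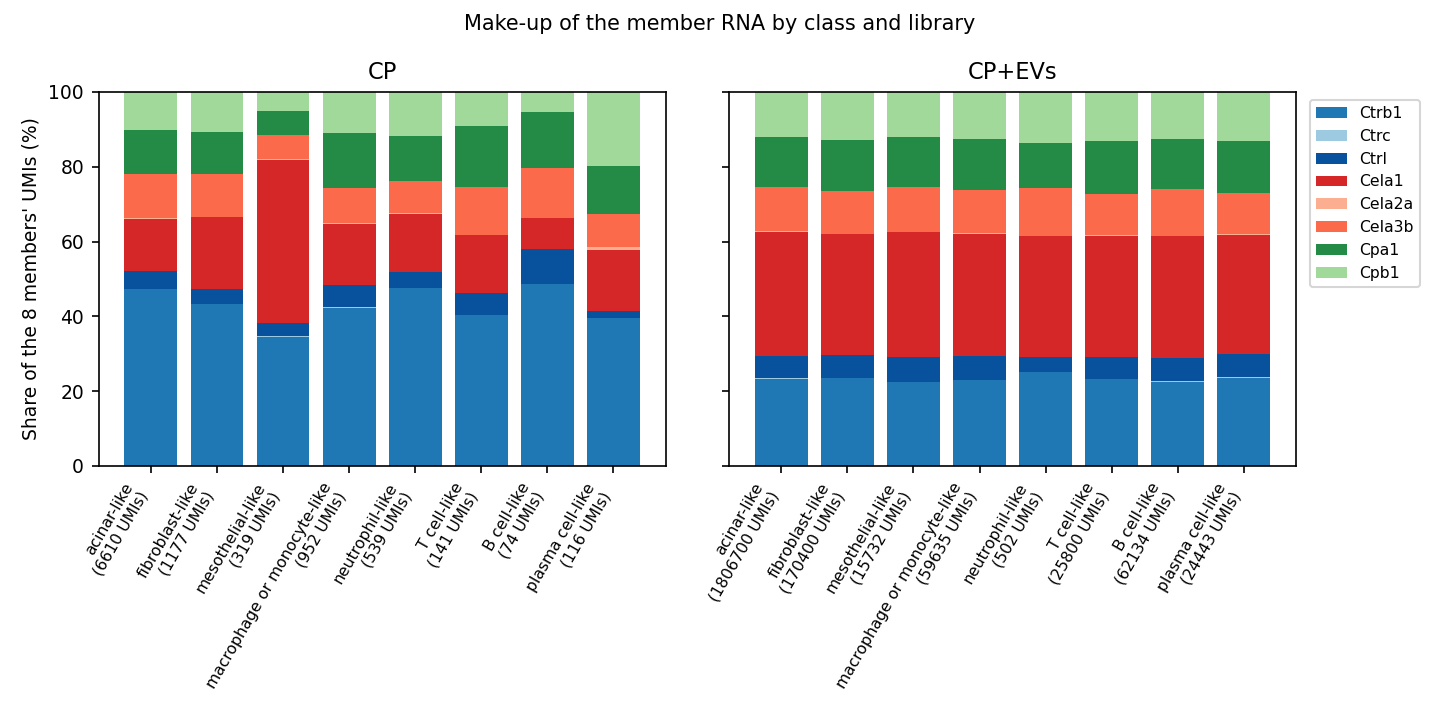
Share of the 8 members' UMIs held by each member (stacked bars from 0 to 100%) in 8 classes of CP (left) and CP+EVs (right), with the members' UMIs under each bar. The bars of CP+EVs are alike, with Cela1 at 33.2% in acinar-like barcodes. Those of CP have more Ctrb1 and less Cela1, except for mesothelial-like barcodes, where Cela1 holds 43.6%.

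CP showed a different make-up outside its acinar-like barcodes too. Its named classes other than acinar-like held 77.3 CPM of the members, against 14672 in CP+EVs. There, 15.4% of 7373 genes had a CP+EVs level 1.5-fold or more above that of CP and 14.7% a level as far below it. Of the members, 7 of 7 with enough UMIs were at least 1.5-fold higher in CP+EVs, and Ctrc, with 4 UMIs in CP, was not measured by this rule. The ratio was 102-fold for Ctrb1 (96.8 to 107) and 318-fold for Cela1 (295 to 343). In T cell-like barcodes, where 4.47% of genes were 1.5-fold or more above their CP level and 8.67% below it, the 6 measured members were higher by 123-fold for Ctrb1 (95.02 to 163) and 444-fold for Cela1 (293 to 710). Over all kept barcodes the members were 237-fold higher in CP+EVs (233 to 240), a log2 ratio of 7.89. It came to 9.26 without the 13 CP barcodes with most member UMIs (chosen after seeing the data). No barcodes were taken out of CP+EVs for this, so the ratio could only rise. Of the members, 8 of 8 passed the 1.5-fold mark upwards, against 9.66% of genes (22.7% passed it downwards). Acinar-like barcodes were 24.3% of the kept barcodes of CP+EVs and 0.0895% of those of CP. Fewer acinar cells and less enzyme RNA in each cannot be told apart in such totals.

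Cela1 per Ctrb1 UMI shows the difference in make-up in a form that does not depend on depth. In CP+EVs it was 1.43 in acinar-like, 1.39 in T cell-like and 1.37 in fibroblast-like barcodes. In CP it was 0.295 in acinar-like (0.274 to 0.318), 0.386 in T cell-like (0.225 to 0.641), 0.324 in neutrophil-like and 0.444 in fibroblast-like barcodes. The intervals of CP and CP+EVs did not overlap in any of these classes. Fibroblast-like and macrophage or monocyte-like barcodes of CP and CP+EVs fell largely in different clusters, while most T cell-like barcodes of both fell in the same cluster.

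Member RNA in CP was concentrated in few barcodes. Of 13409 CP barcodes 80.2% had no UMI of any member, and 78 had at least 10. The 12 acinar-like barcodes held 45.3% of the 14594 member UMIs of CP. A further CP barcode, with acinar and B cell genes, held 1960, with a Cela1 per Ctrb1 ratio of 1.75 (1.56 to 1.98), outside the range of the 12 and above the mean of CP+EVs. In CP+EVs 2 barcodes of 8799 had no member UMI.

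Mesothelial-like barcodes of CP, which carry markers of the lining of the peritoneum, were the exception to the low Cela1 share. They held Cela1 at 38.0 CPM (32.0 to 44.9), from 139 UMIs, while Cela1 ran from 5.49 to 27.0 CPM over the other named CP classes of at least 50 barcodes besides acinar-like. The other members summed to 49.2 CPM there, against 62.3 CPM over named classes other than acinar-like. Of 573 barcodes, 80 had a UMI of Cela1, and 49 of those (61.3%) had no other member, near the 55.4% over all named CP classes other than acinar-like. Cela1 per Ctrb1 was 1.26 (0.977 to 1.64). Without the 2 barcodes with most Cela1 the level was 32.5 CPM. In CP+EVs the Cela1 share of mesothelial-like barcodes, 33.5%, lay within the range of the other classes, at a level 117-fold above that of CP. This class was chosen after its values had been seen, and it rests on 1 library.

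Clusters that could not be named held member RNA as well. In CP+EVs a cluster of 1896 barcodes with a median of 722.5 UMIs held 8.98% of its UMIs in members, and a cluster of 253 barcodes with acinar and B cell genes held 17.6%. Both had less Cela3b (9.91% and 8.93% of member UMIs) and more Cpa1 (15.02% and 16.3%) than acinar-like barcodes (11.8% and 13.4%). In CP a cluster of 3181 barcodes with a median of 689 UMIs, led by neutrophil and monocyte genes, held 0.0749%, which is above any named CP class other than acinar-like. Its Cela1 per Ctrb1 was 0.266 (0.230 to 0.306).

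Related proteases of other tissues varied in where they were found. The neutrophil elastase gene Elane had 1087 UMIs in CP and 3 in CP+EVs, and the mast cell carboxypeptidase Cpa3 had 924 and 76. Cpa4 had 0 in both. CP held 2679 neutrophil-like barcodes and CP+EVs 23, and Elane was highest in an unnamed cluster of CP, at 353 CPM. The number of cells captured and the level in each cannot be told apart in such totals. Cpe, a carboxypeptidase of hormone processing, was highest, among classes of at least 50 barcodes, in mesothelial-like barcodes of both libraries, at 62.4 and 231 CPM. Of 19 such genes 6 were measured over all barcodes, of which 3 passed the 1.5-fold mark upwards in CP+EVs and 2 downwards, against 9.66% and 22.7% of all genes. The carboxypeptidase subunit gene Cpn1 had 3 UMIs in CP and 271 in CP+EVs and was highest in acinar-like barcodes of CP+EVs, at 28.4 CPM.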

How the data were processed

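The authors deposited raw UMI counts per gene and barcode, as matrices of 31253 genes, for each of the 2 libraries. Per the submitters' processing notes CASAVA 1.8, UMI-tools, Seurat and mm10 were used, with aligner, annotation and strand setting not given in the sources used here. In all, the deposited libraries held 51652425 (CP, 13507 barcodes) and 38532775 (CP+EVs, 8845 barcodes) UMIs.

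Kept barcodes had 200 or more genes and no more than 25% mitochondrial UMIs. No doublet caller was run, so mixed barcodes may remain. Of the 31253 identifiers 31107 matched GENCODE vM21, which gave positions. Of repeated symbols the entry with most UMIs was used. Barcodes were clustered with Leiden (scanpy 1.11.5, leidenalg 0.10.2) at resolution 1 on 2000 variable genes, 30 principal components and 15 neighbours, with the 8 members left out, into 27 clusters. Markers were taken as present above a log2 fold of 1 against the median cluster, with UMIs in 10% of barcodes or more. A name needed at least 3 markers and a summed marker level at least 2-fold that of the library. It was refused where an unrelated class reached at least 0.6 of the marker strength at 1.5-fold or more of its library level. These last limits were set after the data were seen. They leave 4 clusters unnamed, with 3513 CP and 2273 CP+EVs barcodes, and the last of them keeps out the cluster with acinar and B cell genes.

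UMIs were summed per class and library and given as CPM. Intervals are exact Poisson, Clopper-Pearson or, for ratios, conditional on the summed count. Folds and counts of genes needed 20 UMIs in total and 20 CPM in either library. Log2 ratios have 0.5 counts added, and correlations use values per 10000 UMIs. Named genes are the 8 members, the 6 highest and 3 lowest correlates of their sum, the 6 that follow them most closely over class sums, and up to 4 leading genes of each list, with 1 gene that this rule names not reported here. Genes of the Cela3b to Cpa1 ratio, the related proteases and genes beside the CP acinar-like barcodes were chosen after their values were seen. The members and lists were chosen with earlier results of these data known. Ratio intervals and correlations were tested on simulated counts.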

Additional observations from a re-analysis of the deposited data

How the results depend on the processing

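No paired analysis was possible because each group has 1 library. Of the 48 alternative values computed, 27 stayed within their counting interval or set tolerance. For the members' summed level in CP+EVs acinar-like barcodes (24.32%), the others were 24.41% with the members in the clustering, 24.42% at Leiden resolution 2, 24.27% with 20 principal components, 23.57% as a mean over barcodes and 23.37% with the unnamed acinar and B cell cluster (chosen after seeing the data). In barcodes with no UMI of Ptprc, Col1a1, Col3a1 or Pecam1 it was 26.26%. The median correlation (0.19) was 0.11 after thinning, 0.48 scaled to UMIs outside enzyme and Reg genes, 0.61 on raw UMIs and 0.40 over the 6 members above 1000 CPM (chosen after seeing the data). For T cell-like barcodes (1.26%) the level was 1.15% with at least 500 genes, 1.64% with at most 10% mitochondrial UMIs, 1.14% with at least 1000 UMIs, 1.71% with the members in the clustering, 1.23% at resolution 0.5 and 1.71% at resolution 2. The log2 ratio over all kept barcodes (7.89) was 7.93 with at least 1000 UMIs and 8.15 on non-enzyme UMIs. It was 9.26 without the 13 CP barcodes with most member UMIs (chosen after seeing the data), a change made in CP only that could only raise it. The largest difference in a member's share (1.73 points, Cela1) was 0.73 over named classes only (chosen after seeing the data) and -1.43, for Cpb1, as a mean over barcodes. The cause of these shifts was not tested. Depth limits what can be read for Cela2a and Ctrc, for the 12 CP acinar-like barcodes and for members outside them in CP.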
